A study of Mus musculus with 6 samples.

Results

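The 9 genes of the leukotriene and prostaglandin pathways described here, across the leukocytes of the mouse lung, are Alox5, Alox5ap, Ltc4s, Ltb4r1, Alox15, Ptgs1, Ptgs2, Hpgds and Ptger4. They are 9 of the 20882 gene columns of the deposited tables, they were chosen by name, and all 9 had counts. Live CD45+ cells, the leukocytes, sorted from lung, were profiled one by one with 10x Genomics Chromium RNA sequencing. The mice were aged 6 to 8 weeks and of a humanized PD-1 strain, in which PD-1, an inhibitory receptor of activated T cells, is the human form. They had received an isotype control antibody or a human PD-1 agonist, an agent that activates the receptor, and the title of the series sets this in neutrophilic asthma. The labels name 3 mice per treatment and say that 3 samples of each group were mixed by cell hashing, at about 50000 cells, and they give no dose, no time and no untreated group.

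Any pair of tables from one treatment had 2373 to 2736 barcodes in common, against 3 to 13 for tables of different treatments. They were therefore treated as 1 library per treatment, with each barcode used once. An effect of treatment and a difference between libraries cannot be told apart. With 1 library per treatment there is no test between treatments, and no replicate check of a ratio. Values of single tables are given as description and are not replicates, since the tables share cells. They use every record of a kept barcode, so the level of the pooled library can lie outside them. How often other genes show no overlap between the tables of the treatments is not given here. After filters, 10306 isotype and 11172 agonist cells were kept, with a median total count per cell of 2537 and 2212 in the deposited total. Depths of classes below are sums over the gene columns. Cells were grouped without use of the 9 genes into 24 clusters, which marker genes placed in 21 classes of 69 to 3958 cells. The classes are called "-like" because they rest on transcripts alone. A level is the number of counts of a gene per 1e6 counts of the class, or CPM. Each interval given is an exact 95% interval for counting error alone. Ratios are log2 of agonist over isotype, scaled with TMM factors, so a negative value is lower in the agonist library. A difference is called here at 1.5-fold, and only for a gene with at least 50 counts over both libraries. Levels are compared across classes for one gene and never between genes, since transcript length and priming differ.

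The leukotriene pathway starts with 5-lipoxygenase (Alox5), which oxidises arachidonic acid with the help of its membrane partner FLAP (Alox5ap). The product becomes the neutrophil attractant leukotriene B4, which signals through the receptor encoded by Ltb4r1, or, through leukotriene C4 synthase (Ltc4s), the bronchoconstricting cysteinyl leukotrienes. In the prostaglandin pathway, cyclooxygenases (Ptgs1, largely constitutive, and Ptgs2, largely inducible) form prostaglandin H2, which hematopoietic prostaglandin D synthase (Hpgds) turns into prostaglandin D2. Ptger4 encodes EP4, a receptor of prostaglandin E2, and Alox15 encodes a lipoxygenase that also yields precursors of pro-resolving lipids.

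**Figure D1:**
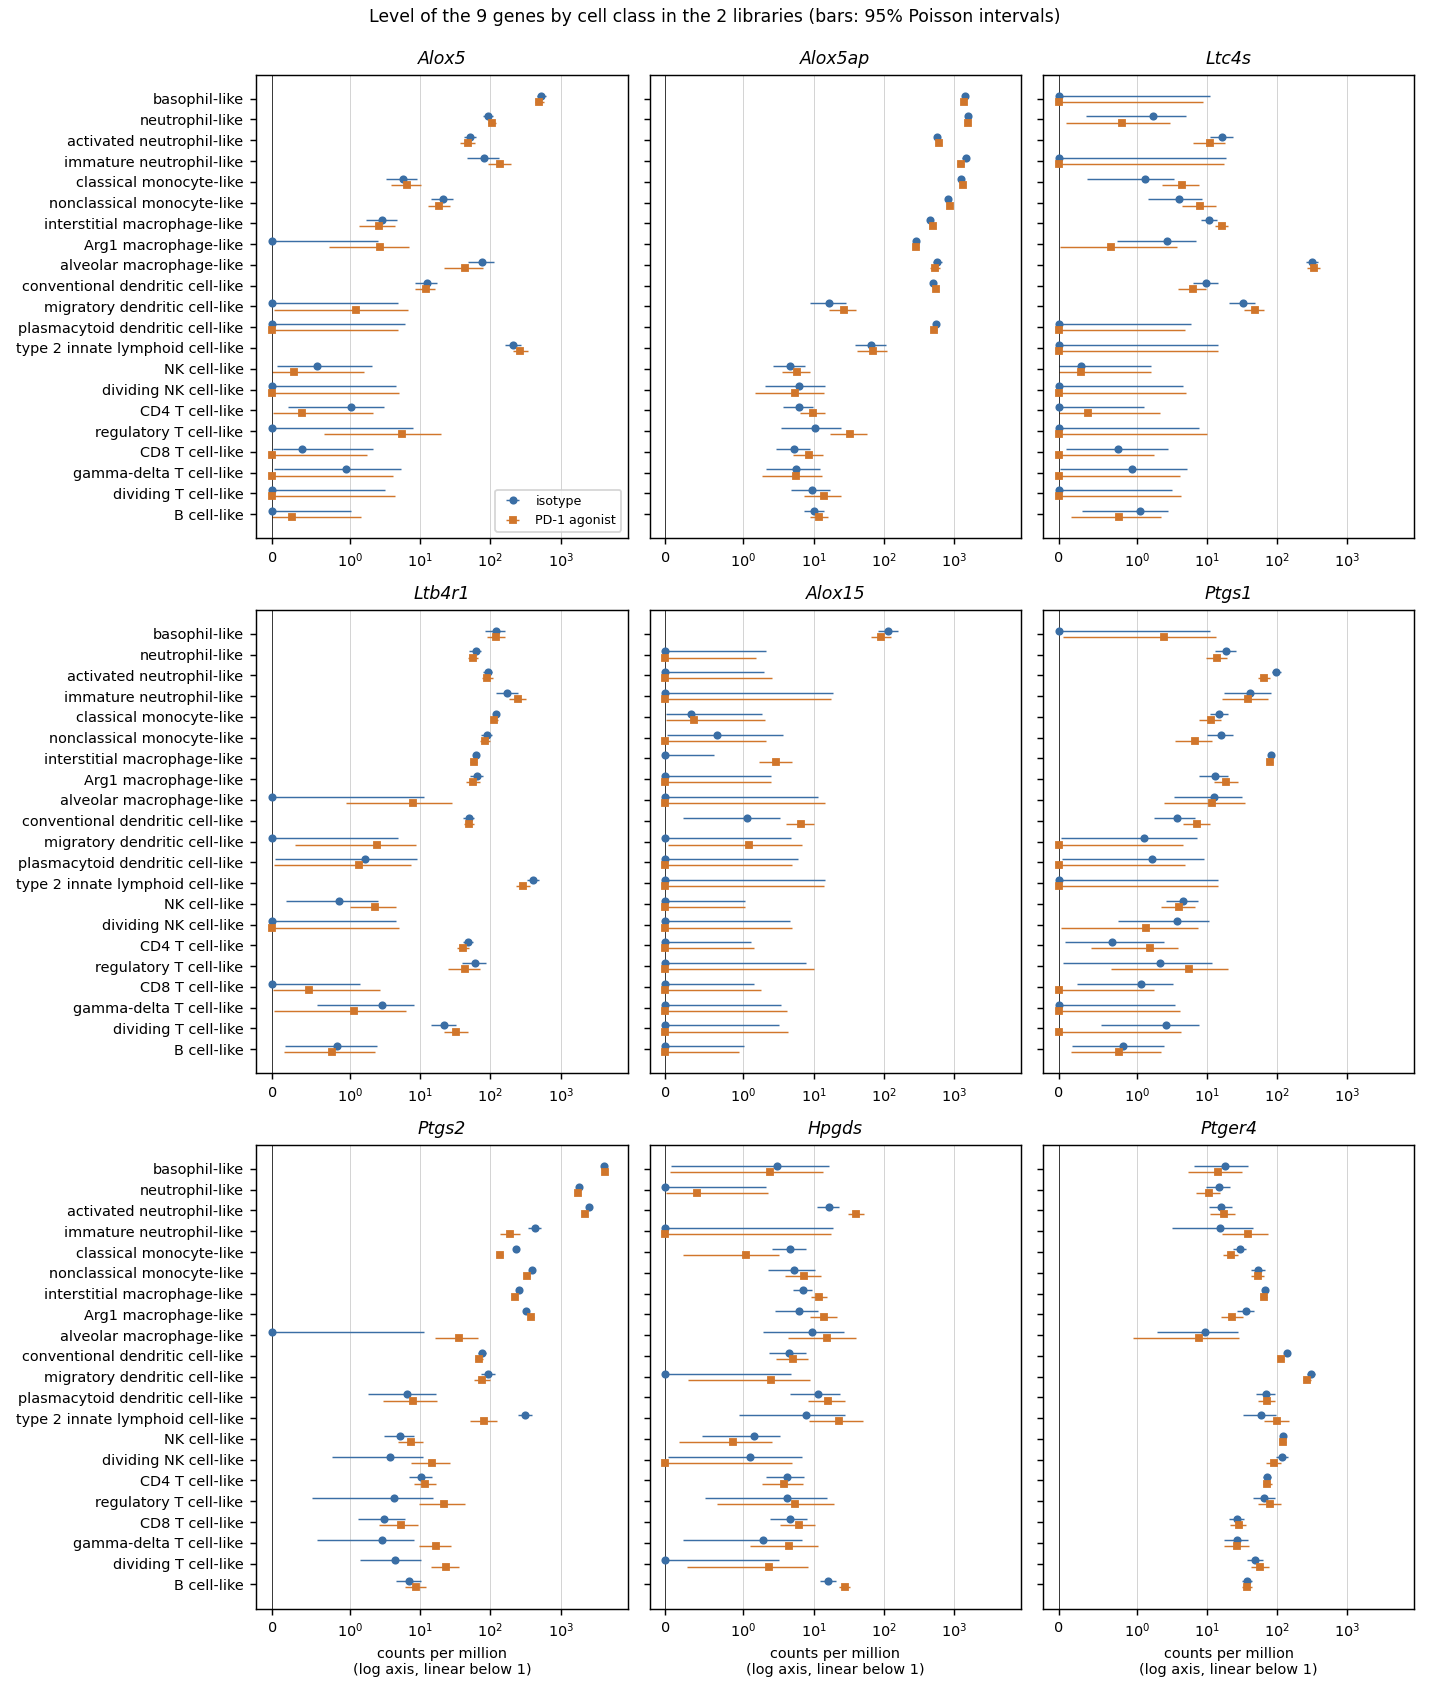
Level of each gene (x, CPM on a log axis that is linear below 1) in 21 cell classes (y) of the isotype (circles) and PD-1 agonist (squares) libraries, with 95% Poisson intervals as bars. Ltc4s peaks at 312 and 330 CPM in alveolar macrophage-like cells and Alox15 at 116 and 92.2 CPM in basophil-like cells, while Ptger4 and Alox5ap have counts in every class of both libraries.

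Alox5 was highest in basophil-like cells, at 533 CPM (interval 458 to 617) in the isotype and 500 CPM (434 to 573) in the agonist library. Type 2 innate lymphoid cell-like cells followed at 211 and 268 CPM, and neutrophil-like cells stood at 93.3 and 105 CPM. Over both libraries the order was basophil-like (515), type 2 innate lymphoid (240), immature neutrophil-like (111), neutrophil-like (99.9), alveolar macrophage-like (60.9), activated neutrophil-like (50.2), nonclassical monocyte-like (19.9) and conventional dendritic cell-like (12.2). The intervals of the immature neutrophil-like and neutrophil-like classes overlapped, and so did those of the alveolar macrophage-like and activated neutrophil-like classes and those of the nonclassical monocyte-like and conventional dendritic cell-like classes. Basophil-like cells made up 1.21% of the kept cells and held 27.6% of all Alox5 counts, against 30.2% in the neutrophil-like class.

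In the 3 isotype tables Alox5 was at 501, 567 and 523 CPM in basophil-like cells, and in the 3 agonist tables at 562, 443 and 461 CPM. The ranges of the treatments overlapped, and the ratio was -0.07 (-0.36 to 0.23). Of the basophil-like cells, 72.6% and 74.1% had at least 1 Alox5 count at a median depth of 2666 and 2540 counts, or 41.2% and 40.5% when each cell was thinned to 1000 counts. The same share in CD4 T cell-like cells, which should lack the enzyme, was 0.287% and 0.092% at a median depth of 2290 and 2111 counts. The gene lies at chr6:116410077-116461178 on the minus strand of GRCm38, the assembly also called mm10. The 250 bases before its start, chr6:116461179-116461428, are shown because the class pattern of this gene opens the pathway, with the single GGGCGG, the core of a GC box, in capitals.
Alox5: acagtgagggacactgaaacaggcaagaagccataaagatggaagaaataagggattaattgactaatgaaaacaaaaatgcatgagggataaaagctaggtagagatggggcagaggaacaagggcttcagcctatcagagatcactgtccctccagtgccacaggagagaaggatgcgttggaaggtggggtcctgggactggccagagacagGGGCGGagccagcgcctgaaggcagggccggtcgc

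Alox5ap was spread over most myeloid classes, with migratory dendritic cell-like cells as an exception at 22.0 CPM. The order over both libraries was neutrophil-like (1576 CPM), basophil-like (1406), immature neutrophil-like (1352), classical monocyte-like (1297), nonclassical monocyte-like (850), activated neutrophil-like (594), alveolar macrophage-like (562), conventional and plasmacytoid dendritic cell-like (both 536), interstitial macrophage-like (474) and Arg1 macrophage-like (290). The intervals of the basophil-like, immature neutrophil-like and classical monocyte-like classes overlapped as neighbours, and so did those from activated neutrophil-like to plasmacytoid dendritic cell-like. Alox5ap was high in classes with little Alox5. Classical monocyte-like cells stood at 6.09 CPM of Alox5 and plasmacytoid dendritic cell-like cells had no Alox5 count. The reverse held in type 2 innate lymphoid cell-like cells, where Alox5ap was at 68.2 CPM, the twelfth place in its order. Of their cells with Alox5, 6 of 30 in the isotype and 6 of 31 in the agonist library also had Alox5ap, against 88.2% and 89.6% in basophil-like cells. Of the cells without Alox5, 2.44% and 3.125% had Alox5ap in the type 2 innate lymphoid class. In basophil-like cells without Alox5 the share was 93.75% and 86.5%, much as in those with it.

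In neutrophil-like cells Alox5ap was at 1627, 1579 and 1632 CPM in the isotype tables and at 1634, 1557 and 1546 CPM in the agonist tables, which overlapped. Its share of cells with a count there was 87.8% and 87.2% at a median depth of 1511.5 and 1421 counts, and 77.2% and 78.4% after thinning. B cell-like cells, taken as the background, had 1.81% and 2.06% at 1615 and 1476 counts, or 0.900% and 1.33% after thinning. The gene lies at chr5:149264767-149288153 on the plus strand and overlaps 2 genes of the other strand, n-R5s180 and Gm19719, and whether counting used strand is not given in the sources used here.

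Ltc4s was highest in 1 small class. Alveolar macrophage-like cells, 37 in the isotype and 32 in the agonist library, stood at 312 CPM (254 to 380) and 330 CPM (263 to 408). Their 69 cells were 0.321% of the kept cells and held 33.6% of all Ltc4s counts, while the 1876 interstitial macrophage-like cells held 26.9% and the 270 migratory dendritic cell-like cells 11.7%. By level, migratory dendritic cell-like cells came next at 40.2 CPM over both libraries, followed by activated neutrophil-like (14.1), interstitial macrophage-like (13.4) and conventional dendritic cell-like cells (7.90). Of these, the activated neutrophil-like and interstitial macrophage-like classes had overlapping intervals. In basophil-like cells, a cell type known for cysteinyl leukotrienes, Ltc4s had no count in 117 and 143 cells. With 3 cells as the limit for a count of 0, which is not an exact interval, the share with a detected count could be up to 2.56% and 2.10%. This limits detection at their median depth of 2666 and 2540 counts, not the share of cells that express the gene.

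In the isotype tables Ltc4s was at 335, 362 and 230 CPM in alveolar macrophage-like cells, and in the agonist tables at 272, 436 and 308 CPM. The values overlapped. Each table held only 12 to 22 of these cells. Of the cells, 32 of 37 and 24 of 32 had a count at a median depth of 9322 and 8688 counts, or 28.2% and 25.3% after thinning. B cell-like cells had 0.22% and 0.14% at a median depth of 1615 and 1476 counts, or 0.132% and 0.102% after thinning. The few activated neutrophil-like cells with Ltc4s, 43 of 1577, had C1qa, a macrophage gene, at 111 CPM against 16.8 CPM in the cells without it, and H2-Ab1, an antigen presentation gene, at 479 against 138 CPM. These levels came from few cells, since C1qa had a count in 9.30% against 2.80% of cells and H2-Ab1 in 18.6% against 14.5%. Apoe, another macrophage gene, was at 411 against 79.7 CPM but in 6.98% against 8.67% of cells. Csf3r, a neutrophil receptor gene, was at 1446 and 1612 CPM. The part of macrophage transcripts in that Ltc4s level was not tested. The gene lies at chr11:50236461-50238616 on the minus strand and overlaps Gm26542 on the plus strand.

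Ltb4r1, the high-affinity leukotriene B4 receptor, was highest in type 2 innate lymphoid cell-like cells, at 407 CPM (333 to 494) in the isotype and 295 CPM (232 to 369) in the agonist library. Immature neutrophil-like cells followed at 210 CPM over both libraries, ahead of basophil-like (120), classical monocyte-like (117), activated neutrophil-like (91.0) and nonclassical monocyte-like cells (86.2). The basophil-like and classical monocyte-like intervals overlapped, as did those of the activated neutrophil-like and nonclassical monocyte-like classes. The classes from Arg1 macrophage-like (60.5) to CD4 T cell-like (45.1) had intervals that overlapped from neighbour to neighbour. Among these were interstitial macrophage-like cells at 60.0 CPM and neutrophil-like cells at 58.8 CPM.

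Within the CD4 T cell-like class Ltb4r1 was split between the 2 clusters. The cluster led by Cxcr6, Rora and Il17a stood at 78.2 CPM (65.8 to 92.4) and 83.4 CPM (68.4 to 101) in the 2 libraries, with counts in 16.7% and 15.3% of cells. The cluster led by Igfbp4, Trib2 and Trat1, with the naive T cell genes Lef1 and Tcf7 among its leading genes, had 2 counts in 547 isotype cells and none in 662 agonist cells. The Cxcr6 cluster was not made of CD4 T cell-like cells alone. Finer clustering set 106 of its 497 isotype and 100 of its 425 agonist cells apart as gamma-delta T cell-like, with the T cell receptor gamma gene Tcrg-C1 at 373 and 289 CPM, and these stood at 232 CPM (186 to 285) and 202 CPM (157 to 255) of Ltb4r1. The 284 and 256 cells that stayed CD4 T cell-like stood at 48.6 CPM (35.9 to 64.5) and 46.0 CPM (31.9 to 64.3). Another 97 and 60 cells became CD8 T cell-like, with no Ltb4r1 count. The gamma-delta T cell-like class used elsewhere in the text is a different cluster, with 3 and 1 Ltb4r1 counts. CD8 T cell-like cells had no count in the isotype and 1 count in the agonist library.

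In type 2 innate lymphoid cell-like cells the isotype tables gave 400, 381 and 436 CPM of Ltb4r1 and the agonist tables gave 290, 342 and 267 CPM. The 3 isotype values lay above the 3 agonist values, and the ratio was -0.47 (-0.92 to -0.03), inside the 1.5-fold limit. These values rest on 71 and 63 cells. A count was found in 66.2% and 65.1% of them at a median depth of 3021 and 3319 counts, or 36.5% and 27.3% after thinning, against 0.165% and 0.140% in B cell-like cells at a median depth of 1615 and 1476 counts (0.149% and 0.0552% after thinning). Ltb4r1 lies at chr14:55765962-55768494 on the plus strand.

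Alox15 was the rarest of the 9 genes, with 44 isotype and 76 agonist counts. Basophil-like cells held 64.2% of them, at 116 CPM (82.6 to 159) and 92.2 CPM (65.2 to 127), and the next class, conventional dendritic cell-like, stood at 4.12 CPM over both libraries. In 15 of the 21 classes there was no count. In B cell-like cells, 0 of 1822 and 0 of 2136 cells had a count, at a median depth of 1615 and 1476 counts. With 3 cells as the limit for a count of 0, the share with a detected count could be up to 0.165% and 0.140%. The basophil-like share of cells with a count was 23.9% and 18.2% at a median depth of 2666 and 2540 counts, or 9.82% and 7.93% after thinning. Isotype tables gave 107, 90.9 and 153 CPM and agonist tables gave 72.8, 128 and 90.9 CPM, which overlapped, and the ratio was -0.31 (-0.99 to 0.37).

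Outside basophil-like cells the libraries differed in their Alox15 counts, with 5 counts in 4 isotype cells and 38 counts in 12 agonist cells. Conventional dendritic cell-like and interstitial macrophage-like cells held 3 of these counts in 2 isotype cells and 36 in 10 agonist cells, with at most 8 in 1 cell. Together these 12 cells had Lpl, a lipoprotein lipase, at 2537 CPM against 277 CPM in the other cells of the classes, Ccl17, a chemokine of dendritic cells, at 2045 against 320 CPM, and Mmp12, a macrophage elastase, at 872 against 83.1 CPM. Retnla was at 461 against 92.5 CPM. The macrophage complement gene C1qa was lower, at 531 against 979 CPM, though in 58.3% against 45.6% of cells, and so was Cd209a, at 70.2 against 112 CPM, though in 25% against 13.8%. The 12 cells had no count of the basophil protease gene Mcpt8. Gata2, another basophil gene, was at 10.0 against 1.14 CPM, in 8.33% against 0.367% of cells. These 12 cells and the genes compared were chosen after their values were seen, and their median depth was 8269 against 5985.5 counts. Alox15 lies at chr11:70344152-70352031 on the minus strand.

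The cyclooxygenase genes had different class patterns. Ptgs1 was highest in activated neutrophil-like cells (83.8 CPM over both libraries) and interstitial macrophage-like cells (79.7), whose intervals overlapped, and then in immature neutrophil-like cells (39.6). The classes from Arg1 macrophage-like (15.97) to nonclassical monocyte-like (11.01) overlapped from neighbour to neighbour. Interstitial macrophage-like cells held 58.5% of all Ptgs1 counts and were at 81.0 and 78.2 CPM in the 2 libraries. Ptgs2 was highest in basophil-like cells (4194 CPM), and then in activated neutrophil-like (2379) and neutrophil-like cells (1783), each apart from the next. Nonclassical monocyte-like (363), Arg1 macrophage-like (350) and immature neutrophil-like cells (305) followed with overlapping intervals, ahead of interstitial macrophage-like (241), type 2 innate lymphoid (195) and classical monocyte-like cells (187), which overlapped from neighbour to neighbour. Of the nonclassical monocyte-like counts, 1133 of 1188 for Ptgs2 and 33 of 36 for Ptgs1 lay in cluster 6, which carries neutrophil transcripts. Cluster 15, the other cluster of that class, was at 16.6 and 37.5 CPM of Ptgs2 in the 2 libraries. In basophil-like cells Ptgs1 had 0 isotype counts and 1 agonist count, so the class with the highest Ptgs2 had almost no Ptgs1.

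Ptgs2 lies at chr1:150100031-150108227 and Ptgs1 at chr2:36230426-36252272, both on the plus strand, and Gm43621 overlaps Ptgs1 on the minus strand. The 250 bases before each start, chr1:150099781-150100030 and chr2:36230176-36230425, are shown so that the 2 isozyme genes can be read side by side.
Ptgs2: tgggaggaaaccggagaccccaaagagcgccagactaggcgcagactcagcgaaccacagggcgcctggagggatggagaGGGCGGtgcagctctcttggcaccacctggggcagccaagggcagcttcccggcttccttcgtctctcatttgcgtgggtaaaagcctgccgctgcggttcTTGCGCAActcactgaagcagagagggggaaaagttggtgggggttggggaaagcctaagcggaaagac
Ptgs1: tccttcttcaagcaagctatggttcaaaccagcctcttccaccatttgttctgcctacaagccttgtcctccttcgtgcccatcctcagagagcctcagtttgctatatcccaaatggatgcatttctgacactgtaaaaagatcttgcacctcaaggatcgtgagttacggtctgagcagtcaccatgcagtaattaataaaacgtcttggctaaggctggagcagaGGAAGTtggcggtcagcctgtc
Capitals mark 3 of the 4 motifs searched on both strands, which do not overlap one another: TTGCGCAA, a palindrome bound by C/EBP factors, GGGCGG of a GC box and GGAAGT, a core bound by ETS factors. The fourth, TATAAA, is in neither. TTGCGCAA stands 69 to 62 bases before the start of Ptgs2 and in 0.164% of the 32851 promoter entries of the same length. GGGCGG is in 32.7% of them, GGAAGT in 19.7% and TATAAA in 12.4%. A match describes the letters only. The sequences are those of RefSeq for GRCm38.p6, which had entries for 7 of the 9 genes.

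Within basophil-like cells Ptgs2 counts were uneven. No count was found in 40.2% of the isotype and 37.1% of the agonist cells, while 36.8% and 35.7% had 10 counts or more, and the highest cell had 79 and 86 counts. Isotype tables gave 3863, 4220 and 5136 CPM and agonist tables gave 3376, 5192 and 5074 CPM, which overlapped, and the ratio was 0.05 (-0.05 to 0.15). In activated neutrophil-like cells the isotype tables gave 2638, 2427 and 2337 CPM and the agonist tables gave 2084, 2057 and 2272 CPM, so that each isotype value was above each agonist value. The ratio was -0.17 (-0.24 to -0.11), inside the 1.5-fold limit. Cells with a Ptgs2 count were 74.6% and 68.8% there at a median depth of 1695 and 1493 counts, and 66.5% and 61.2% after thinning. In B cell-like cells the share was 1.26% and 1.22% at 1615 and 1476 counts, or 0.709% and 0.748% after thinning.

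Ptgs2 was lower in the agonist library in classical monocyte-like cells, at 234 and 136 CPM. The isotype tables gave 195, 243 and 252 CPM and the agonist tables gave 136, 143 and 133 CPM, with no overlap, and the ratio was -0.78 (-0.97 to -0.60). It was -0.51 when every barcode was kept, -0.40 when doublets were kept, -0.54 with finer clusters and -0.53 when the 9 genes were among the clustering genes, which are 4 values inside 1.5-fold. The other 9 alternatives stayed past it. In this class, 9.76% of the 8097 genes with at least 50 counts were past 1.5-fold in either direction. The neutrophil marker genes S100a8 and Csf3r were at 1071 and 210 CPM in the class, with counts in 37.4% and 55.6% of cells. The part of neutrophil transcripts in its Ptgs2 level and ratio was not tested. In immature neutrophil-like cells Ptgs2 was at 427 and 191 CPM with a ratio of -1.13 (-1.72 to -0.57). There 20% of the 1050 genes were past the fold, and the top isotype cell held 24.1% of that library's Ptgs2 counts. The isotype tables gave 572, 181 and 300 CPM and the agonist tables gave 165, 200 and 280 CPM, which overlapped. Without the first isotype table the ratio was -0.46.

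In nonclassical monocyte-like cells the Ptgs2 ratio of the class and of its clusters differed in sign. The class was at 395 CPM in the isotype and 336 CPM in the agonist library, a ratio of -0.21 (-0.38 to -0.04). Cluster 6, which carries neutrophil transcripts (S100a8 at 6774 CPM and Csf3r at 755 CPM), was at 738 and 898 CPM, a ratio of 0.31 (0.14 to 0.48). Cluster 15, with S100a8 at 59.4 CPM, was at 16.6 and 37.5 CPM, a ratio of 1.20 (0.26 to 2.26) from 12 and 43 counts. Cluster 6 made up 144 of 379 isotype and 129 of 491 agonist cells. The part of neutrophil transcripts in the Ptgs2 level of cluster 6 was not tested.

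Of the other classes with at least 50 Ptgs2 counts, type 2 innate lymphoid cell-like cells alone were past 1.5-fold. Arg1 macrophage-like cells were at 318 and 382 CPM, a ratio of 0.26 (0.08 to 0.44), which was 0.04 without the second agonist table. Interstitial macrophage-like cells were at 257 and 223 CPM, a ratio of -0.19 (-0.30 to -0.08). In type 2 innate lymphoid cell-like cells the ratio was -1.93 (-2.70 to -1.22), but 1 of 71 isotype cells held 66 of the 79 isotype counts. Without the top cell of each library the ratio was -0.40 (-1.75 to 0.90), from 13 and 10 counts. Below 50 counts, where no difference is called, Ptgs2 was at a ratio of 2.60 (0.78 to 5.03) in the gamma-delta T cell-like class, from 3 and 15 counts, and at 2.44 (0.98 to 4.21) in the dividing T cell-like class, from 5 and 20. Dividing NK cell-like cells, with 3 and 11 counts, gave 2.04 (0.12 to 4.52), which was 0.17 without the top cell of each library. The regulatory T cell-like class, with 2 and 8, gave 2.41 (0.0841 to 5.68). Alveolar macrophage-like cells had 0 and 9 counts.

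Ptgs1 in activated neutrophil-like cells was at 97.7 CPM (84.1 to 113) in the isotype and 65.7 CPM (53.1 to 80.3) in the agonist library, a ratio of -0.56 (-0.94 to -0.20). The single tables overlapped, with 95.2, 84.1 and 82.7 CPM for isotype and 58.2, 80.0 and 103 CPM for agonist. Without the first agonist table the ratio was -0.28 (-0.66 to 0.09), and it was -0.25 (-0.62 to 0.11) when the shallowest record of each barcode was used. Cells with a count were 14.4% and 9.95%, or 8.26% and 6.51% after thinning, at a median depth of 1695 and 1493 counts, against 0.165% and 0.140% in B cell-like cells at 1615 and 1476 counts (0.0647% and 0.0742% after thinning). In interstitial macrophage-like cells the ratio was -0.04 (-0.23 to 0.16).

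**Figure D2:**
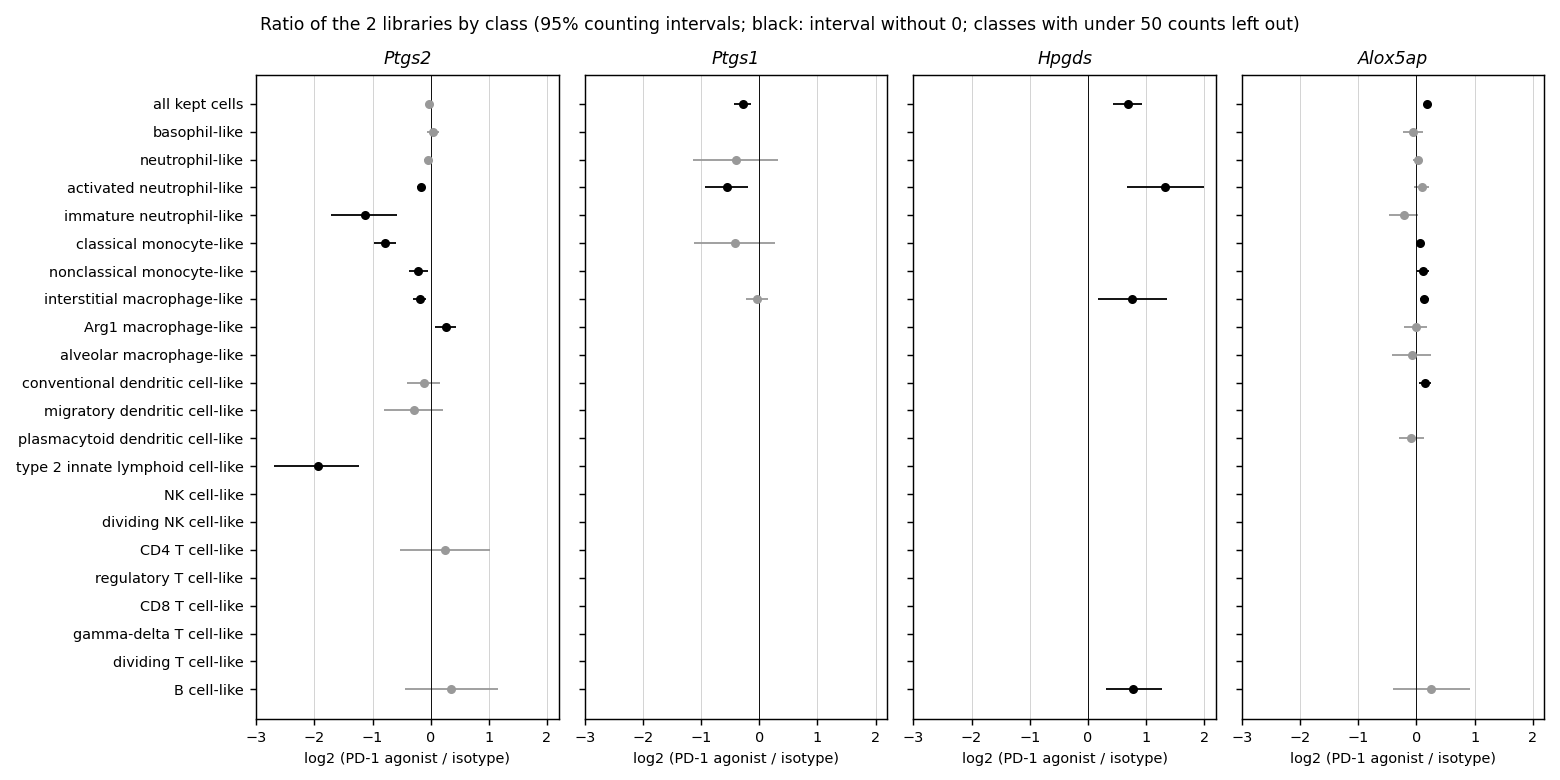
Log2 ratio of agonist over isotype (x) of Ptgs2, Ptgs1, Hpgds and Alox5ap over all kept cells and in each class with at least 50 counts (y), with 95% counting intervals; black points have an interval without 0. Hpgds lies right of 0 in all 3 classes shown, and Ptgs2 lies on both sides, at -0.78 in classical monocyte-like and 0.26 in Arg1 macrophage-like cells.

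Hpgds was low everywhere and was higher in the agonist library in the 3 classes with at least 50 counts. Below that number of counts, classical monocyte-like cells had 14 isotype and 3 agonist counts, a ratio of -2.10 (-4.54 to -0.26), and Arg1 macrophage-like cells 9 and 21, a ratio of 1.21 (0.0212 to 2.52). Over both libraries activated neutrophil-like (27.0 CPM), B cell-like (22.2), type 2 innate lymphoid (15.6), plasmacytoid dendritic cell-like (13.9) and alveolar macrophage-like cells (12.2) had intervals that overlapped from neighbour to neighbour. Arg1 macrophage-like (10.2) and interstitial macrophage-like cells (9.41) followed without a gap between intervals. B cell-like cells held 29.7% of all Hpgds counts. They had been chosen as the background class for this gene, but at 16.3 and 27.7 CPM they stood above NK cell-like cells, at 1.44 and 0.865 CPM, which were taken in their place after these values were seen. Neutrophil-like cells had 0 counts in 1072 isotype cells and 1 in 1599 agonist cells.

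In activated neutrophil-like cells Hpgds was at 16.5 CPM (11.2 to 23.4) in the isotype and 40.8 CPM (31.1 to 52.6) in the agonist library, a ratio of 1.32 (0.67 to 1.996). Isotype tables gave 12.2, 17.6 and 16.3 CPM and agonist tables gave 37.4, 50.7 and 43.7 CPM, with no overlap. In B cell-like cells the isotype tables gave 18.9, 11.5 and 14.8 CPM and the agonist tables gave 28.8, 26.0 and 25.7 CPM, with no overlap, and the ratio was 0.78 (0.31 to 1.27). Without the second isotype table it was 0.57 (0.0899 to 1.07), inside 1.5-fold. It was 0.14 (-0.86 to 1.14) in cluster 1, led by immunoglobulin genes, and 0.98 (0.43 to 1.55) in cluster 8, led by Ighd and Fcer2a. In interstitial macrophage-like cells the tables gave 4.29, 6.42 and 11.9 CPM for isotype and 14.3, 12.8 and 14.2 CPM for agonist, and the ratio was 0.76 (0.17 to 1.37). It was 0.19 (-0.20 to 0.59) when every barcode was kept, and 0.35 (-0.25 to 0.94) when doublets were kept.

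Shares of cells with an Hpgds count were 2.37% and 4.36% in activated neutrophil-like cells at a median depth of 1695 and 1493 counts, or 1.37% and 3.05% after thinning. NK cell-like cells had 0.355% and 0.243% at 2620 and 2305 counts, or 0.110% and 0.0585% after thinning. The 52 activated neutrophil-like cells with Hpgds had Rab15, a leading gene of that cluster, in 73.1% of cells against 24.1% of those without, and Gpnmb in 32.7% against 6.69%, at a median depth of 2024 and 1584 counts. Gpnmb is also a marker of the Arg1 macrophage-like class. C1qa was in 3.85% of the cells with Hpgds and 2.95% of those without, and Apoe in 13.5% and 8.46%. Csf3r was in 78.8% and 82.6%. The part of macrophage transcripts in that Hpgds level was not tested. Hpgds lies at chr6:65117293-65144908 on the minus strand and overlaps Gm17147 on the plus strand.

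Ptger4 had counts in each class of both libraries, as did Alox5ap, and ranged from 287 to 8.70 CPM over both libraries. Migratory dendritic cell-like cells were highest at 306 CPM (269 to 348) and 268 CPM (234 to 306), apart from conventional dendritic cell-like (126 over both libraries), NK cell-like (123) and dividing NK cell-like cells (104), whose neighbours overlapped. Below them type 2 innate lymphoid (79.9), CD4 T cell-like and regulatory T cell-like (both 71.9), plasmacytoid dendritic cell-like (70.4) and interstitial macrophage-like cells (65.8) also overlapped from neighbour to neighbour. B cell-like cells stood at 37.4 CPM in each library, and NK cell-like cells at 123 CPM in each, a ratio of 0.01 (-0.18 to 0.21).

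In migratory dendritic cell-like cells the isotype tables gave 267, 361 and 287 CPM of Ptger4 and the agonist tables gave 320.5, 245 and 235 CPM, which overlapped. The ratio was -0.19 (-0.47 to 0.08), and 70.0% and 61.4% of the cells had a count at a median depth of 5636.5 and 5630.5 counts, or 24.9% and 22.8% after thinning. No class was taken as a background for Ptger4. In conventional dendritic cell-like cells the isotype tables gave 154, 129 and 152 CPM and the agonist tables gave 104, 122 and 99.31 CPM, with no overlap and a ratio of -0.28 (-0.50 to -0.07), inside the 1.5-fold limit. In the CD4 T cell-like class, the Cxcr6 and Il17a cluster was at 85.0 and 98.1 CPM and the Igfbp4 cluster at 50.5 and 46.9 CPM. Of the former, the cells that finer clustering set apart as gamma-delta T cell-like were at 52.1 and 46.8 CPM of Ptger4, and those that stayed CD4 T cell-like at 99.27 and 121 CPM. Ptger4 lies at chr15:5206661-5244187 on the minus strand, where Ttc33 and Gm15937 overlap it on the plus strand.

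**Figure D3:**
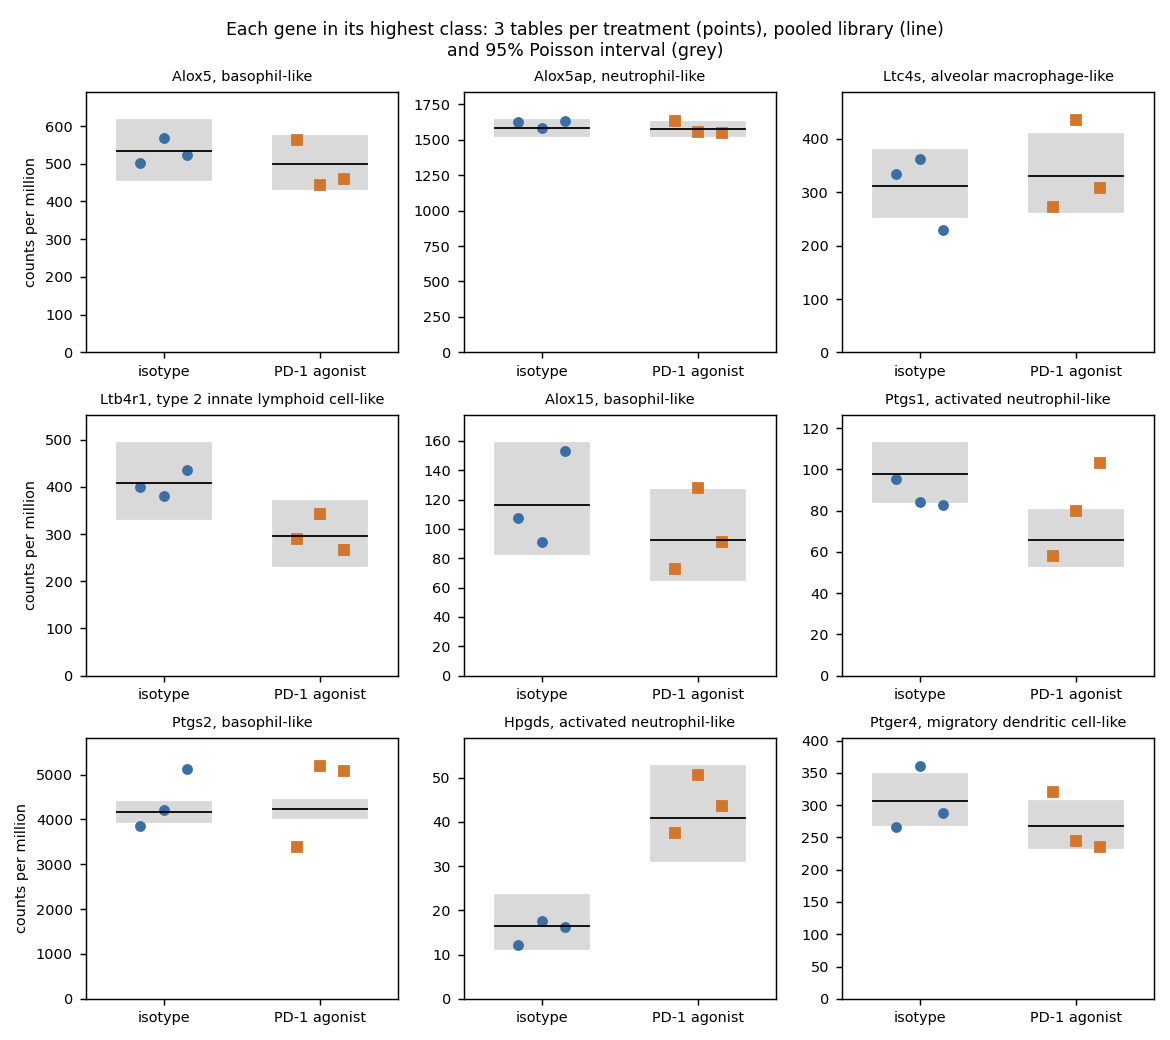
Level (y, CPM) of each gene in the class where it was highest, in the 3 tables of the isotype and of the agonist treatment (points), with the pooled library (line) and its 95% Poisson interval (grey). Tables of a treatment share cells. Hpgds in activated neutrophil-like cells and Ltb4r1 in type 2 innate lymphoid cell-like cells have no overlap between treatments, and the other 7 genes overlap. The share of all genes with no overlap is not given here.

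Over all kept cells, 2 of the 9 genes, Hpgds and Alox15, were past 1.5-fold, both higher in the agonist library, where 8.13% of the 15113 genes with at least 50 counts were past that fold in either direction and 5.9% in that one. Hpgds was at 6.04 and 9.55 CPM, a ratio of 0.68 (0.44 to 0.93), and its tables did not overlap (5.49, 5.68 and 6.86 against 9.60, 9.33 and 10.8 CPM). It was inside 1.5-fold when every barcode was kept (0.44) and when doublets were kept (0.58). Alox15 was at 1.20 and 2.13 CPM, a ratio of 0.85 (0.30 to 1.42), while in basophil-like cells alone it was -0.31. Cells with an Alox15 count were 0.310% of the isotype and 0.340% of the agonist cells. Of the 76 agonist counts, 36 lay in 10 conventional dendritic cell-like or interstitial macrophage-like cells, against 3 isotype counts in 2 such cells. The interval does not cover such clumping of counts in few cells. Alox5 had a ratio of 0.29 (0.14 to 0.45), Alox5ap 0.19 (0.16 to 0.22) and Ptgs1 -0.29 (-0.44 to -0.14), which was -0.14 without the first agonist table. For Ltc4s (0.09), Ltb4r1 (-0.06), Ptgs2 (-0.03) and Ptger4 (-0.05) the interval held 0. The median over the 9 genes was 0.09, against -0.00 over all genes.

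The libraries also differed in their makeup. Neutrophil-like cells were 10.4% of the isotype and 14.3% of the agonist cells, activated neutrophil-like cells 8.18% and 6.57%, and interstitial macrophage-like cells 9.77% and 7.78%. With the share of each class in the total count set equal in both libraries, an alternative chosen after seeing the data, the ratio became 0.06 for Alox5, 0.07 for Alox5ap, -0.17 for Ptgs1 and -0.12 for Ptgs2. For Hpgds it was 0.71 and for Alox15 0.58, just inside 1.5-fold. Fewer cells of a type and less RNA per cell cannot be told apart in a ratio over all cells.

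**Figure D4:**
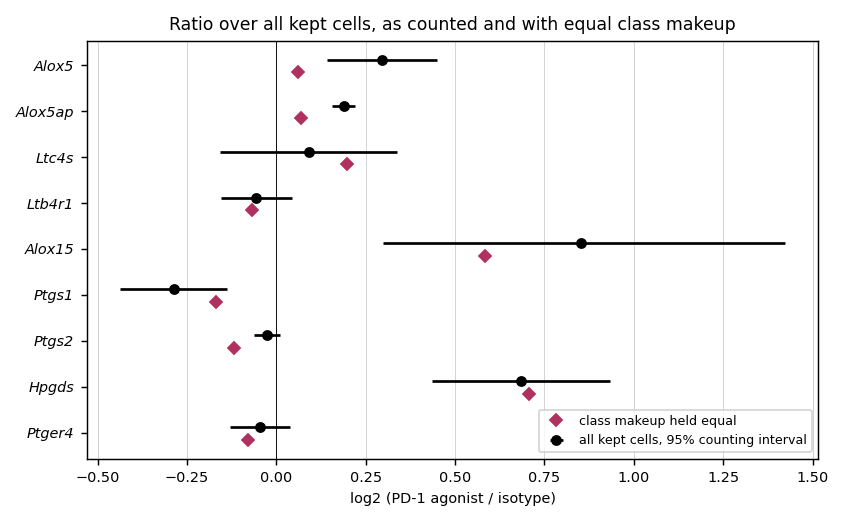
Log2 ratio of agonist over isotype (x) of the 9 genes (y) over all kept cells, with 95% counting intervals (circles), and with the class makeup set equal in both libraries (diamonds, no interval). Alox5 moves from 0.29 to 0.06 and Alox5ap from 0.19 to 0.07, while Hpgds is at 0.68 and 0.71.

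Within classes, 71 of the 189 pairs of a gene and a class had at least 50 counts, 32 of them higher and 39 lower in the agonist library. Past 1.5-fold were 9 of the 71 (12.7%), 5 higher and 4 lower, where 10.2% of the 122063 gene and class pairs of the whole table were past it. Of the 9, 7 had an interval without 0: Hpgds in 3 classes, Ptgs2 in 3 and Ltc4s in interstitial macrophage-like cells. Among these, Ptgs2 in type 2 innate lymphoid cell-like cells was at -0.40 without the top cell of each library. The top isotype cell there held 66 of the 79 isotype counts. The share of all gene and class pairs that meet both rules is not given here, so the 7 have no background beside them. The share of all genes past 1.5-fold was 8.94% in activated neutrophil-like, 7.38% in B cell-like, 8.48% in interstitial macrophage-like, 9.76% in classical monocyte-like, 10.1% in Arg1 macrophage-like and 11.4% in dividing T cell-like cells. It was 20% in type 2 innate lymphoid cell-like and in immature neutrophil-like cells. For Ltc4s the interstitial macrophage-like tables gave 12.2, 9.63 and 12.2 CPM in the isotype and 26.9, 18.4 and 15.4 CPM in the agonist library, with no overlap and a ratio of 0.60 (0.11 to 1.10). It was inside 1.5-fold in 7 of 13 alternatives, with the lowest value, 0.46 (-0.0374 to 0.96), from the shallowest record of each barcode, and was 0.55 and 0.53 without the second and the third isotype table. The intervals of Ptger4 in Arg1 macrophage-like cells (-0.63) and Ltb4r1 in dividing T cell-like cells (0.60) held 0, and each was inside 1.5-fold in 5 of 13 alternatives. Alox5ap was inside 1.5-fold in every class with 50 counts.

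Other genes of the pathways were given by a list of 55 in 8 roles, of which 41 were measured and 34 had at least 50 counts. Of the 34, 19 were higher and 15 lower in the agonist library, with a median ratio of 0.04, and 1 was past 1.5-fold, Ptger1, with 21 and 31 counts and an interval that held 0. Of the 15113 genes, 49.6% were higher. Phospholipases and related genes, which release arachidonic acid, had 2 higher and 4 lower, with Plaat3 at -0.26 (-0.34 to -0.18) and Plaa at 0.06 (-0.03 to 0.16). Among 8 genes of leukotriene synthesis and breakdown, 4 were higher. The leukotriene B4 hydroxylase gene Cyp4f18 was at 0.16 (0.12 to 0.20) with its highest level, 992 CPM, in activated neutrophil-like cells, and Cotl1, a 5-lipoxygenase binding protein gene, at -0.07 (-0.10 to -0.04). The cysteinyl leukotriene receptors Cysltr1, at 0.08 (-0.05 to 0.22), and Cysltr2, at -0.17 (-0.33 to -0.02), both had their highest levels in type 2 innate lymphoid cell-like cells, at 318 and 142 CPM.

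Among 5 prostanoid synthase genes, 2 were higher, and the most abundant were Ptges3, at -0.09 (-0.15 to -0.03), and the thromboxane synthase gene Tbxas1, at -0.10 (-0.21 to 0.00). Of 5 genes of prostanoid breakdown and transport, 4 were higher, with Abcc1 at 0.04 (-0.11 to 0.18) and Abcc4, a prostaglandin exporter, at -0.16 (-0.33 to 0.02). Hpgd, the prostaglandin dehydrogenase that inactivates prostaglandins, had the largest ratio of these with an interval without 0, at 0.52 (0.35 to 0.70), and was chosen after its value was seen. Its highest level was 145 CPM in nonclassical monocyte-like cells, the class that was 3.68% of isotype and 4.39% of agonist cells. Of 5 prostanoid receptors, 4 were higher, with the prostacyclin receptor gene Ptgir at 0.05 (-0.23 to 0.34) and Ptger2 at -0.11 (-0.41 to 0.18). Of 3 receptors of resolving lipid mediators, 2 were higher, with Fpr2 at 0.06 (-0.02 to 0.14) and Gpr18 at 0.19 (0.09 to 0.30).

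**Figure D5:**
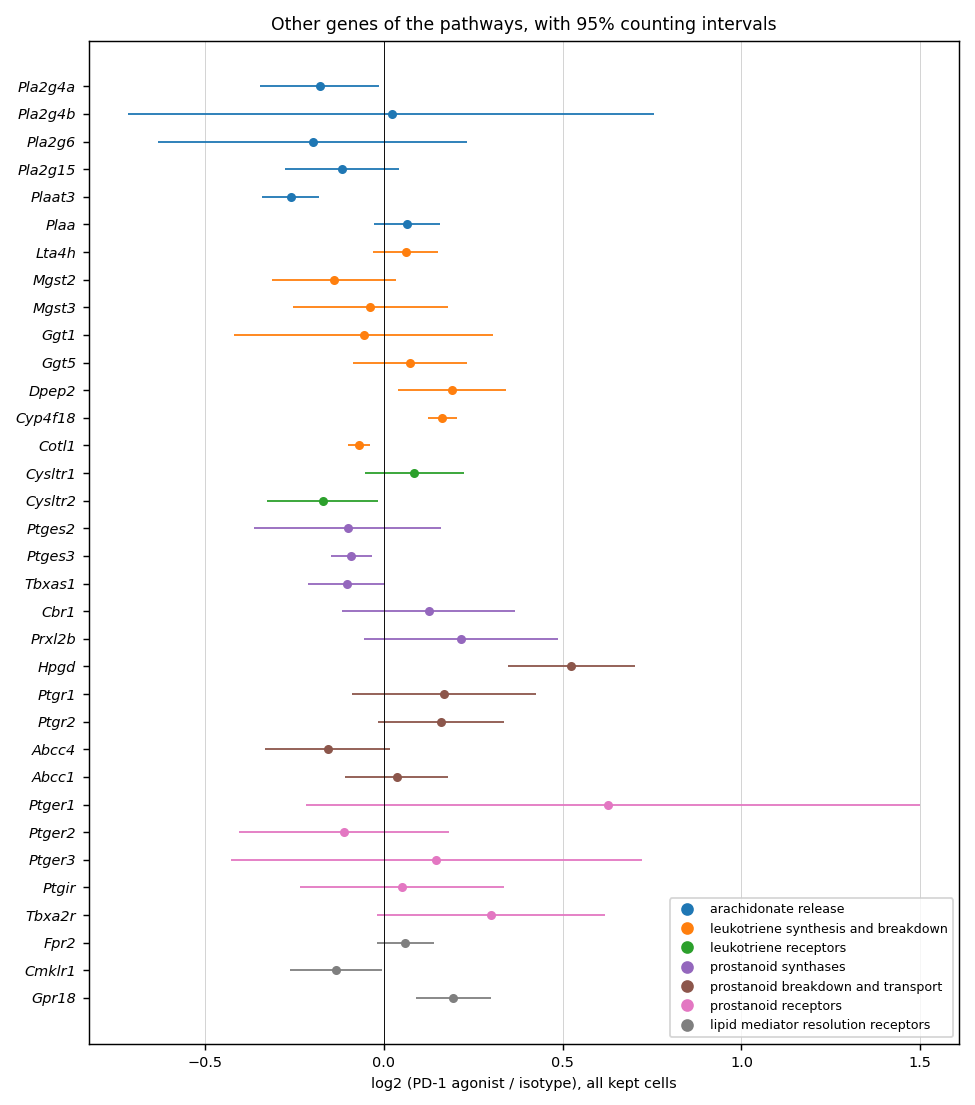
Log2 ratio of agonist over isotype over all kept cells (x) of the 34 other pathway genes with at least 50 counts (y), coloured by role, with 95% counting intervals. Of the 34 genes, 19 lie right of 0 and 15 left, and Ptger1, with 21 and 31 counts, is the one past 1.5-fold.

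The genes whose levels over the 21 classes were most like those of each of the 9 genes were ranked by Pearson's r of log2 (CPM + 5), a description over classes that share 2 libraries. For Alox5 these were Klf5 (r = 0.87), Klf7 (0.87) and Lilr4b (0.84), and for Alox5ap Nfam1, Taldo1 and I830077J02Rik (all 0.95). For Ltc4s they were Gal (0.85), Fabp1 (0.84) and Ear1 (0.84), and for Ltb4r1 Lpcat2 (0.79), Lilr4b (0.78) and Pkm (0.77). Ptgs1 was most like Clec5a (0.92), Gpr84 (0.90) and Cd14 (0.86), and Ptgs2 most like Cxcl2 (0.93), Zfp36 (0.93) and Osm (0.92). Alox15 followed A230098N10Rik and the basophil genes Mcpt8 and Gata2 (all 0.99). It had no count in 15 of the 21 classes, so these values rest mostly on the basophil-like class. Hpgds followed 4933434E20Rik (0.83), Snx29 (0.83) and Irf2bp2 (0.81), and Ptger4 followed Gnb4 (0.81), Endod1 (0.80) and Ncoa7 (0.79). Between the 9 genes themselves the highest value was 0.75, for Alox5ap and Ptgs2.

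Cell types outside the 21 classes were looked for by their markers. None of the 24 clusters was assigned to eosinophils, mast cells, platelets or lung structural cells. Most genes of these lists had counts, and many are also used by other leukocytes. Of 8 eosinophil genes, Prg2 had 3 isotype counts and 1 agonist count, Ear6 23 and 25, Ccr3 47 and 53, Il5ra 58 and 81, and Siglecf 231 and 195, and the others had 405 to 4005 counts. Of 8 mast cell genes, the tryptase genes Tpsb2 and Tpsab1 had 1 and 0 counts in the isotype and none in the agonist library. Mcpt4 had 1 and 83 counts, Cpa3 182 and 173, Kit 355 and 329, Cma1 1035 and 926, Fcer1a 145 and 207, and Hdc 11178 and 13498. The platelet gene Pf4 had 179 and 283 counts and the fibroblast gene Col1a1 14 and 9. The 9 genes in eosinophils, mast cells, and lung epithelium or endothelium were not analysed here.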

How the data were processed

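Sorted lung leukocytes of 2 treatments were profiled in 6 tables, 3 per treatment, of 6393 to 6749 cell records and 22202875 to 30608477 total counts each. The authors deposited estimated counts per cell for each gene, per the file headers, with 0.715% to 0.732% of the values above 0 not whole and none of those of the 9 genes, and a total count per cell. The submitters' processing notes name Partek and mm10, with no aligner or counter named. No column of another sample was found (0).

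Each barcode was kept once per treatment, as the record with the highest total count, giving 12448 and 13728 barcodes. Barcodes with no entry (N/A) in the deposited CD3e+ column were left out, and the other 11106 and 12216 were screened with Scrublet in scanpy 1.11.5 (expected rate 0.1, threshold 0.25), which removed 800 and 1044 as doublets. Cells were scaled to 10000 counts and clustered on 2000 variable genes without the 9 genes and the pathway list (30 components, 15 neighbours, Leiden resolution 1, igraph 0.11.9, Python 3.11.15), and classes were named from 31 marker lists needing at least 3 markers. Counts were summed per class and library and scaled with TMM factors of edgeR 4.0.16 in R 4.3.3, which lay between 0.982 and 1.02. Intervals are exact (Clopper-Pearson or Poisson, scipy 1.17.1, 95%) and cover counting error only. The floor for a count of 0 is 3 counts, or 3 cells for a share, and is not an exact interval. On simulated data over all kept cells, 95.1% of the intervals of unchanged genes held 0, over 15113 genes. This checks the calculation and does not show how well the intervals cover real counts that clump in single cells.

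All 9 genes were reported in every class. Of the pathway list, the 2 genes with most counts per role were named, with any gene past 1.5-fold whose interval held no 0. The 3 genes most alike were taken among those with at least 50 CPM in a class. The members and lists were chosen with earlier results of these data known. The alternatives were plain library totals, every barcode kept, doublets kept, the record with the lowest total, Leiden resolution 2, the 9 genes and the list among the clustering genes, the top cell left out, each table left out, thinning to 1000 counts, no count minimum and a fold of 2. Equal class makeup and single clusters were added after seeing the data.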

Additional observations from a re-analysis of the deposited data

Results flagged for a closer look

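The Ptgs2 ratio of agonist over isotype, on the log2 scale, had opposite signs between classes. It was 0.26 in Arg1 macrophage-like cells. It was -0.17 in activated neutrophil-like, -0.78 in classical monocyte-like, -1.13 in immature neutrophil-like, -0.19 in interstitial macrophage-like, -0.21 in nonclassical monocyte-like and -1.93 in type 2 innate lymphoid cell-like cells. Each of these intervals held no 0. The type 2 innate lymphoid cell-like value was -0.40 without the top cell of each library, the Arg1 macrophage-like value 0.04 without the second agonist table, and the immature neutrophil-like value -0.46 without the first isotype table. Each of the 2 nonclassical monocyte-like clusters alone was positive, at 0.31 and 1.20, and the classical monocyte-like value was -0.40 when doublets were kept. The difference between classes was not tested, since each treatment is 1 library.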

How the results depend on the processing

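No paired analysis was possible because the 3 tables of a treatment share cells of 1 pool, so the planned replicate block was not run. Over all kept cells, keeping every barcode moved Alox5ap to 0.23 and Ptgs2 to 0.0687. Equal class makeup, chosen after seeing the data, moved Alox5 to 0.0619, Alox5ap to 0.0693 and Ptgs2 to -0.12. With a fold of 2, 0 of the 34 pathway genes were past it, against 1 at 1.5-fold; no p-value was computed. The other 105 values of this kind stayed within their counting interval or, for counts, within 1.5 times. Of the 18 ratios within classes whose interval held no 0, 2 changed sign, with 3 values: Alox5ap in classical monocyte-like cells (-0.0241 with the 9 genes among the clustering genes) and Ptgs2 in nonclassical monocyte-like cells (0.31 in cluster 6 and 1.20 in cluster 15 alone). Of the 53 whose interval held 0, 39 changed sign in at least 1 alternative. Single values moved beyond their interval 51 times. Leaving out the first isotype table gave Ptgs2 0.74 in migratory and 0.43 in conventional dendritic cell-like cells, and leaving out the third agonist table gave -4.28 in type 2 innate lymphoid cell-like cells. Keeping doublets lowered the basophil-like levels to 391 CPM of Alox5, 3133 of Ptgs2 and 75.6 of Alox15. The class with the highest level was the same in all 12 settings for 7 genes. It was immature neutrophil-like for Alox5ap in 2 settings and interstitial macrophage-like for Ptgs1 in 2. Classes of few cells limit the precision, and the cause of these shifts was not tested.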
